A study of Rattus norvegicus with 40 samples.

Results

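The genes described here are those of the collagens, laminins and structural matrix of the rat right ventricle. They were chosen by annotated symbol, with earlier results of these data known: every collagen chain (Col followed by a digit), every laminin alpha, beta or gamma chain, and Fn1, Fbn1, Eln, Lox, Loxl1, Loxl2, Sparc, Bgn, Dcn, Lum, Fmod, Fbln1, Fbln2, Nid1 and Nid2. The array held 91 such probes of 50 genes, among 40941 probes in all, of which 23292 have 1 named gene and cover 14861 genes. Fbln2, Col4a2, Col6a3, Col12a1, Lama2 and Lamb1 were not analysed here. Testing required values in 4 or more of the 6 animals of each group, a condition met by 62 probes of 38 genes, among 13454 tested probes with 1 named gene.

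Fibrillar collagens form the tensile fibres between muscle cells, and the chains of one collagen type assemble in fixed proportions before they are secreted, trimmed and cross-linked by lysyl oxidases. Each cardiomyocyte and capillary is wrapped in a basement membrane made of collagen IV and laminin networks that nidogens join. Interstitial collagens come mainly from fibroblasts, while laminins and collagen IV come from cardiomyocytes, endothelial cells and mural cells as well.

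RNA from the right ventricle of 24 male Sprague-Dawley rats, 6 in each of 4 groups, was hybridised to 40 two-colour arrays. Animals are numbered here from 1 to 6 within each group, which is not the number on the labels. Normal rats had no exposure. Hypoxia rats breathed 10% oxygen during 4 weeks and were taken at its end. SuHx rats, a model of severe pulmonary arterial hypertension with a pressure-loaded right ventricle, had 1 injection of the VEGF receptor inhibitor SU5416 (20 mg/kg), the same 4 weeks of hypoxia and then 2 weeks at sea level. The rats of the carvedilol group had the same injection and hypoxia, then 15 mg/kg of carvedilol, which blocks beta and alpha1 adrenoceptors, by gavage each day during 4 weeks in room air. Carvedilol was given in 20% dimethyl sulfoxide and water, and no group given only this vehicle was analysed here. Time since hypoxia therefore differs between hypoxia, SuHx and carvedilol animals along with the treatment, and these cannot be told apart. Every value is taken as a log2 ratio of the ventricle's RNA over a reference pooled from 14 rat cell lines, so it sets the same probe against itself between animals and says nothing of one gene's amount against another's.

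The arrays held between 19264 and 35758 values each. Per animal, the mean number of values per array was between 28192 and 35758 in normal, 22759 and 28400 in hypoxia, 27270 and 29637 in SuHx, and 26167.3 and 31670 in carvedilol animals. Cardiomyocyte markers (10 of 10 tested) had mean log2 ratios between 3.74 and 6.81 in the 24 animals, above the reference in each. All 5 comparisons come from 1 limma model of the 4 groups, with p-values adjusted by Benjamini-Hochberg over the 13454 probes, and a probe is called at an adjusted p under 0.05. The median probe itself moved: by -0.37 in hypoxia versus normal, -0.11 in SuHx versus normal, 0.26 in SuHx versus hypoxia, -0.18 in carvedilol versus SuHx and -0.30 in carvedilol versus normal. Medians of the members are set beside these shifts, while changes of single genes are given without subtracting them. In whole tissue, fewer cells of a type and less RNA per cell cannot be told apart.

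Of the 5 comparisons, SuHx versus hypoxia held the most calls among matrix genes. Of the 62 tested probes, 21 probes of 16 genes were higher in SuHx and 0 were lower; across all tested probes 12.2% were called, 9.97% higher and 2.24% lower. The median member change was 0.96 against 0.26 for all probes, and 57 of 62 changes were above 0. Leaving out SuHx animal 6 lowered the count to 13, and a fit of these groups alone called 8 higher and 1 lower, beside 1135 and 886 calls over all probes. In hypoxia versus normal 3 probes were called, all lower, against 11.9% of all probes (1.03% higher and 10.9% lower), with a median of -0.39 beside -0.37. This count fell to 1 without hypoxia animal 5, normal animal 2 or normal animal 4.

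In SuHx versus normal 0 of 62 probes were called by limma, beside 1.13% of all probes (0.505% higher and 0.624% lower). At an unadjusted p under 0.05 there were 17 member probes and 1741 of all 13454. The median member change was 0.53 against -0.11, and 53 of 62 changes were above 0. Without normal animal 3 or SuHx animal 2 the count was 1, and without SuHx animal 3 it was 3. In carvedilol versus SuHx 3 probes were higher and 1 was lower, beside 1.13% of all probes (0.52% higher and 0.609% lower), with a median of -0.28 against -0.18. This count was 1 without SuHx animal 1, 3 or 5, 2 without SuHx animal 2 or carvedilol animal 2, 5 or 6, and 0 in a fit of these groups alone. In carvedilol versus normal 6 were higher and 1 was lower, beside 10.5% of all probes (2.68% higher and 7.77% lower), with a median of 0.29 against -0.30. The comparisons share groups, so their counts are not independent of each other. Of the 35 calls in the 5 comparisons, 19 held whichever single animal of the compared groups was left out. Under every other setting that gave a value as well, 8 held: Lamb2, Col4a1, Col5a1 (A_44_P196079), Lama5 (A_44_P429455), Col1a2 and Fbn1 (A_44_P996061) in SuHx versus hypoxia, and Lama5 (A_44_P429455) and Col8a1 in carvedilol versus normal.

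**Figure D1:**
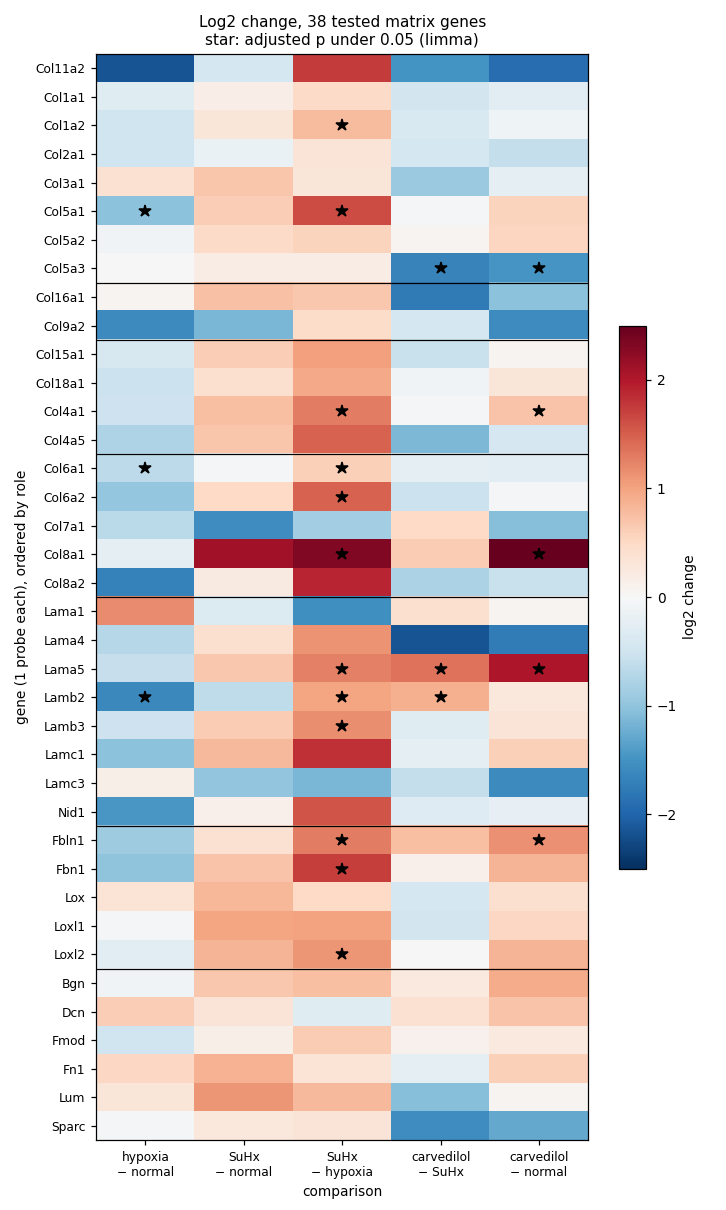
Log2 change of 1 probe per tested gene (38 genes in order of role, black lines between roles) in the 5 comparisons, with red for higher and blue for lower in the group named first and a star where the limma adjusted p is under 0.05. Stars are most frequent in SuHx versus hypoxia, with 12 of 38 genes, and absent in SuHx versus normal.

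Among laminins, Lamb2 and Lama5 separated several groups without overlap. Lamb2 encodes the laminin beta 2 chain, part of the basement membrane of striated muscle and of vessels. Its probe A_44_P550228 was lowest in hypoxia (0.10 to 0.56, median 0.39), against 1.71 to 2.27 (median 1.96) in normal, 0.81 to 1.72 (median 1.46) in SuHx and 1.81 to 2.70 (median 2.30) in carvedilol animals. Hypoxia overlapped with no other group, SuHx lay wholly below carvedilol, and normal and SuHx met only at their edges. Lamb2 fell by 1.62 ± 0.18 in hypoxia versus normal, 3.08-fold (limma adjusted p = 9.2e-06). It was 0.99 ± 0.18 higher in SuHx than in hypoxia (limma adjusted p = 0.000953) and 0.89 ± 0.18 higher in carvedilol than in SuHx (limma adjusted p = 0.0191). Against normal, it stood at -0.63 ± 0.18 in SuHx (limma adjusted p = 0.0757) and at 0.26 ± 0.18 in carvedilol animals (limma adjusted p = 0.373), neither past the threshold. All 3 calls held when any single animal was left out. The call in hypoxia versus normal was lost when the probes of the gene were averaged, and that with carvedilol in 4 of 13 other settings (averaged probes, a fit of these groups alone, the first technical array, and animal numbers over 100 on the labels as a covariate).

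A second Lamb2 probe, A_44_P435371, designed on an EST, ran from -0.32 to 2.84 in hypoxia, 0.88 to 5.31 in SuHx and -0.19 to 2.39 in carvedilol animals. It was called in no comparison, and its change from SuHx to carvedilol was -1.56 ± 0.67 (limma adjusted p = 0.249), opposite in sign to the RefSeq probe. Its sign was also opposite in SuHx versus normal (0.93) and carvedilol versus normal (-0.63). The sign was the same in hypoxia versus normal (-0.41) and SuHx versus hypoxia (1.34). When the probes of a gene were averaged, Lamb2 in carvedilol versus SuHx became -0.33.

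Lama5 encodes the laminin alpha 5 chain of vascular and epithelial basement membranes. Its probe A_44_P429455 ran from -1.57 to -0.58 (median -1.11) in normal, -2.02 to -1.32 (median -1.64) in hypoxia, -1.30 to 0.36 (median -0.46) in SuHx and 0.30 to 1.80 (median 1.05) in carvedilol animals. Every carvedilol animal was above every normal and hypoxia animal, and SuHx was wholly above hypoxia. Lama5 was 2.03 ± 0.28 higher in carvedilol than in normal, 4.07-fold (limma adjusted p = 0.000153). It was 1.35 ± 0.28 higher in carvedilol than in SuHx (limma adjusted p = 0.0231) and 1.26 ± 0.28 higher in SuHx than in hypoxia (limma adjusted p = 0.00521). In hypoxia and SuHx versus normal it stood at -0.58 ± 0.28 and 0.68 ± 0.28, neither called.

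Another Lama5 probe, A_44_P429453, was called in the same 3 comparisons, with 1.64, 1.15 and 1.07. The third tested probe, A_44_P189469, carries the same transcript accession as both and was called in none: its changes were 0.12 ± 0.39 in carvedilol versus normal, -0.32 ± 0.39 in carvedilol versus SuHx and -0.07 ± 0.39 in SuHx versus hypoxia. Its groups overlapped throughout, with values from -0.47 to 1.85. The 2 called probes each lost the carvedilol versus SuHx call when single animals were left out, 1 in 5 and the other in 7 of 12 omissions.

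**Figure D2:**
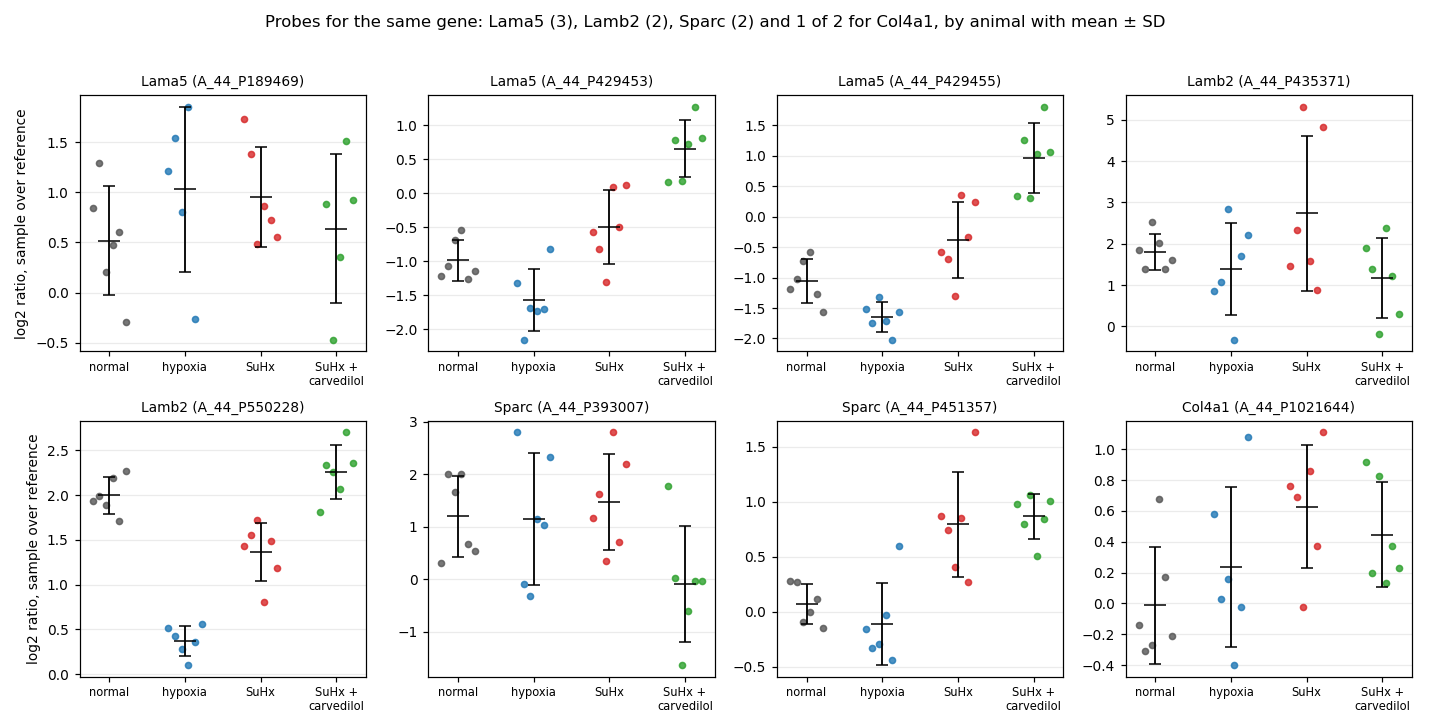
Log2 ratios by animal (points, 6 animals per group less missing values) with mean ± SD for 3 Lama5, 2 Lamb2 and 2 Sparc probes and the Col4a1 probe not used as its representative, titled by probe ID. The Lama5 probes A_44_P429453 and A_44_P429455 separate carvedilol from normal animals while A_44_P189469 does not, and the Lamb2 and Sparc probes named on ESTs (A_44_P435371 and A_44_P393007) spread more within groups than the RefSeq probes beside them.

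The other laminin chains were less separated. Lamb3, the beta 3 chain best known from epithelial laminin, was called in SuHx versus hypoxia by 2 of its 3 tested probes, at 1.16 ± 0.31 (limma adjusted p = 0.0175) and 0.98 ± 0.24 (limma adjusted p = 0.00911), while the other stood at 0.57 ± 0.55. Lamc1, the gamma 1 chain present in most laminins, was called by none of 3 probes. Its representative ran from -4.88 to 0.24 in hypoxia and -1.20 to 1.26 in SuHx, a change of 1.83 ± 0.67 (limma adjusted p = 0.0753), and a second RefSeq probe had the widest within-group spread of all 62 (SD 2.26). Lama4, the alpha 4 chain of capillary basement membranes, was read by an EST probe alone and was called nowhere, at -2.16 ± 0.78 in carvedilol versus SuHx (limma adjusted p = 0.18). Nid1, which links laminin to collagen IV, stood at 1.57 ± 0.73 in SuHx versus hypoxia (limma adjusted p = 0.177). Lama1 and Lamc3, named after their values were seen, were the laminin genes whose representative probe stood below 0 there, at -1.54 ± 0.64 and -1.14 ± 0.88, neither called.

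In hypoxia versus normal, Lama4, Lamc1 and Nid1 had changes of -0.72, -1.02 and -1.45, none called. In SuHx versus normal they were 0.41, 0.81 and 0.12, and in carvedilol versus normal -1.75, 0.59 and -0.20. Their standard errors lay between 0.67 and 0.81, so changes of the size seen for Lamb2 could hardly be told from 0 on these probes.

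Col4a1 encodes the alpha 1 chain of collagen IV, the network collagen of every basement membrane. Its probe A_44_P1070510 ran from 0.43 to 1.56 (median 1.05) in normal, 0.15 to 0.74 (median 0.64) in hypoxia, 1.35 to 2.13 (median 1.82) in SuHx and 1.64 to 1.95 (median 1.76) in carvedilol animals. Every SuHx animal was above every hypoxia animal, and every carvedilol animal above every normal one. Col4a1 was 1.28 ± 0.19 higher in SuHx than in hypoxia, 2.42-fold (limma adjusted p = 0.000225), which held in all 12 omissions of 1 animal, and 0.72 ± 0.19 higher in carvedilol than in normal (limma adjusted p = 0.0188, 0.0554 without normal animal 5). The latter call was also lost in 4 of 13 other settings. In SuHx versus normal it stood at 0.75 ± 0.19 (limma adjusted p = 0.0567), in hypoxia versus normal at -0.52 ± 0.19 and in carvedilol versus SuHx at -0.03 ± 0.19. The other Col4a1 probe was called nowhere and stood at 0.39 ± 0.25 in SuHx versus hypoxia.

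Col8a1 encodes the alpha 1 chain of collagen VIII, a short-chain collagen of vascular and fibrotic tissue. It ran from -2.83 to -1.13 (median -2.20) in normal, -4.68 to -1.42 (median -1.88, 5 animals) in hypoxia, -1.46 to 1.5 (median 0.04) in SuHx and 0.13 to 0.83 (median 0.68) in carvedilol animals. The carvedilol animals lay wholly above the normal ones, and SuHx and hypoxia met only at their edges. Col8a1 was 2.73 ± 0.52 higher in carvedilol than in normal, 6.65-fold (limma adjusted p = 0.00211), and 2.31 ± 0.54 higher in SuHx than in hypoxia, 4.97-fold (limma adjusted p = 0.00799). The call in SuHx versus hypoxia held in all 12 omissions of 1 animal, with changes from 1.73 to 2.6. It was lost in 3 of 13 other settings (animal numbers over 100 as a covariate, the first technical array, and a fit of these groups alone). In SuHx versus normal Col8a1 stood at 2.09 ± 0.52 (limma adjusted p = 0.0523), just outside the threshold, in hypoxia versus normal at -0.23 ± 0.54 and in carvedilol versus SuHx at 0.64 ± 0.52.

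The promoters of Col4a1, Lama5 and Col8a1 are shown because these are the collagen and laminin genes whose carvedilol animals lay wholly above the normal ones on a probe called by limma, a choice made after their values were seen. They come from the RefSeq promoter table (build GRCr8, 250 bases before to 50 after the gene start). Of the 50 member genes, 36 had an entry. Each sequence reads 5′ to 3′ on the gene's strand, and capitals mark matches to any of 4 motifs or to its reverse complement, with no overlap between different motifs in these sequences. The CCAAT box was searched by the letters CCAAT. The GC box, which Sp1 binds, was searched by the letters GGGCGG. The TATA box was searched by the letters TATAAA. The element that Smad3 and Smad4 bind was searched by the letters CAGACA.
Col4a1, chr16:84885347-84885646, plus strand: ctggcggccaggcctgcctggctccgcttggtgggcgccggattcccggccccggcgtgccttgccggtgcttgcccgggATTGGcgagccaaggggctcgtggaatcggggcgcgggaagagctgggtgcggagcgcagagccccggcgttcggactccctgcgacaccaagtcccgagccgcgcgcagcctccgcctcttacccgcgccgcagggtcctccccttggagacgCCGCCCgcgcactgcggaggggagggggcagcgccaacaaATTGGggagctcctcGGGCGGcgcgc
Lama5, chr3:187695925-187696224, minus strand: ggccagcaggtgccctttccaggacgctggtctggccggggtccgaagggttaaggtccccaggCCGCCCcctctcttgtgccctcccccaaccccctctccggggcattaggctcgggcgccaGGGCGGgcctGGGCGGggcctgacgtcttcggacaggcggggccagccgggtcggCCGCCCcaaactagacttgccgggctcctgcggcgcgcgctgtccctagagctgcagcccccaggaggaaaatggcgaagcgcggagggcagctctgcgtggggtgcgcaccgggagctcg
Col8a1, chr11:56246532-56246831, plus strand: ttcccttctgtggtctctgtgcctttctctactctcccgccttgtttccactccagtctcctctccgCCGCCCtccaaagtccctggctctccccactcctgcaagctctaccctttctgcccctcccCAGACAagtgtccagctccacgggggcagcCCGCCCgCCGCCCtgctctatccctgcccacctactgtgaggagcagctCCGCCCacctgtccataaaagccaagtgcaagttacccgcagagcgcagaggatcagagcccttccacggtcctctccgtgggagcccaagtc
Col4a1 held 2 CCAAT and 2 GGGCGG matches, Lama5 4 GGGCGG matches, and Col8a1 4 GGGCGG matches and 1 CAGACA match. GGGCGG was in 52.8% of the 36 member promoters and in 34.9% of all 27457, CCAAT in 30.6% and 37.7%, CAGACA in 27.8% and 20.8%, and TATAAA in 8.33% and 14.3%. The GC content was 61.0% at the median of the members and 52.3% over all promoters. These are matches of letters in this window only.

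A pair of further basement membrane collagens, whose C-terminal fragments restrain vessel growth, were not called by their representatives. Col15a1 ran from 3.29 to 4.01 in normal, 0.50 to 4.04 in hypoxia, 3.67 to 4.95 in SuHx and 3.07 to 4.28 in carvedilol animals, with 1.02 ± 0.43 in SuHx versus hypoxia (limma adjusted p = 0.128). Its other changes were -0.40, 0.62, -0.56 and 0.06 in hypoxia versus normal, SuHx versus normal, carvedilol versus SuHx and carvedilol versus normal. Col18a1 stood at 0.95 ± 0.40 in SuHx versus hypoxia on its representative (limma adjusted p = 0.129), and at -0.54, 0.40, -0.09 and 0.31 in the other comparisons in the same order. A second RefSeq probe was called nowhere either, whereas an EST probe with 4 SuHx and 5 hypoxia values was called at 3.49 ± 0.90 (limma adjusted p = 0.0197). Without SuHx animal 5 this Col18a1 probe, A_44_P436844, stood at 2.54 and was not called (limma adjusted p = 0.0569), and the call was lost in 5 of 12 other settings. Col4a5, of collagen IV as well and named after its values were seen, separated SuHx (2.10 to 2.54) from hypoxia (-0.92 to 2.00) without overlap at 1.48 ± 0.54, not called (limma adjusted p = 0.0753).

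**Figure D3:**
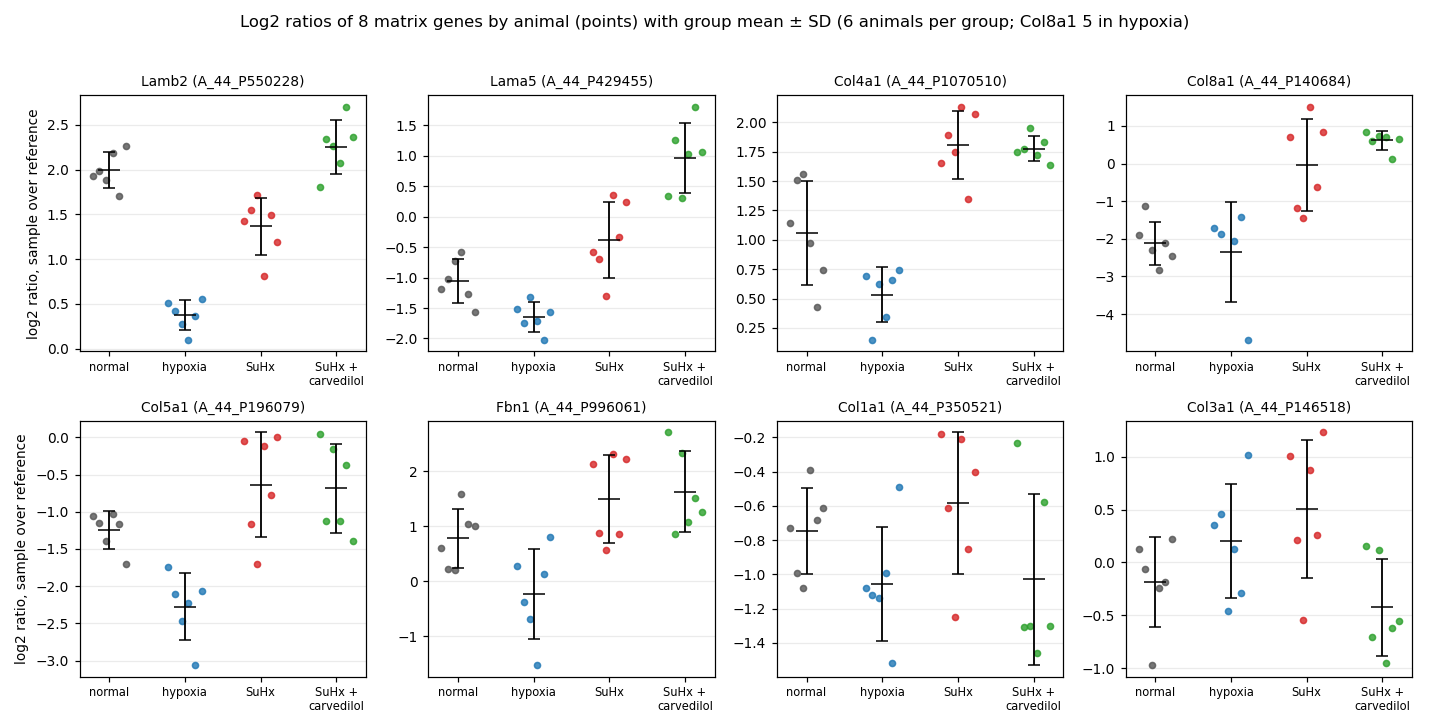
Log2 ratios by animal (points) in the 4 groups with mean ± SD (bars) for the representative probes of Lamb2, Lama5, Col4a1, Col8a1, Col5a1, Fbn1, Col1a1 and Col3a1, 6 animals per group except Col8a1 in hypoxia with 5. Lamb2 dips in hypoxia (0.10 to 0.56), Lama5 is highest with carvedilol (0.30 to 1.80), and Col1a1 and Col3a1 overlap across the groups.

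Among fibrillar collagens, the alpha 1 chain of collagen V was called where those of collagens I and III were not. Collagen V nucleates collagen I fibrils and sets their diameter. The Col5a1 probe A_44_P196079 ran from -1.70 to -1.03 (median -1.16) in normal, -3.06 to -1.74 (median -2.16) in hypoxia, -1.70 to 0.00 (median -0.45) in SuHx and -1.39 to 0.05 (median -0.74) in carvedilol animals. Hypoxia lay wholly below normal and below SuHx, while SuHx overlapped with normal. Col5a1 fell by 1.03 ± 0.31 in hypoxia versus normal (limma adjusted p = 0.0343), but not in 6 of the 12 fits that leave out 1 animal, and was 1.64 ± 0.31 higher in SuHx than in hypoxia, 3.12-fold (limma adjusted p = 0.00147). Its second tested probe stood at -1.15 ± 0.38 (limma adjusted p = 0.0538) and 1.77 ± 0.38 (limma adjusted p = 0.00447) in these comparisons. Against normal, the first stood at 0.62 ± 0.31 in SuHx and 0.56 ± 0.31 in carvedilol animals, and carvedilol versus SuHx at -0.05 ± 0.31.

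Col5a2, the partner chain, was called by 1 of 3 probes in SuHx versus hypoxia, at 0.85 ± 0.27 (limma adjusted p = 0.0425), with 0.55 and 0.62 on the others. That call was lost in 6 of 12 omissions and in 10 of 14 other settings. Its representative stood at -0.08, 0.47, 0.06 and 0.53 in hypoxia versus normal, SuHx versus normal, carvedilol versus SuHx and carvedilol versus normal. Col5a3, a chain of a minor collagen V form, was the member lower with carvedilol: -3.82 to -0.54 (median -2.54) there, against -1.40 to 0.20 (median -0.53) in SuHx and -1.38 to -0.27 (median -0.80) in normal animals. These ranges overlapped. It fell by 1.67 ± 0.39 in carvedilol versus SuHx (limma adjusted p = 0.0401), but not in 9 of 12 omissions, and by 1.48 ± 0.39 against normal (limma adjusted p = 0.0183), which held in all 12.

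Collagens I and III, the bulk of cardiac scar and interstitium, were mostly not called. Col1a1 ran from -1.08 to -0.39 (median -0.70) in normal, -1.52 to -0.49 (median -1.10) in hypoxia, -1.25 to -0.18 (median -0.51) in SuHx and -1.46 to -0.23 (median -1.30) in carvedilol animals, so that all groups overlapped. Its changes were -0.31, 0.16, 0.47, -0.45 and -0.29 in hypoxia versus normal, SuHx versus normal, SuHx versus hypoxia, carvedilol versus SuHx and carvedilol versus normal, each with an SE of 0.24 and limma adjusted p between 0.206 and 0.866. None of the other Col1a1 probes was called. Over its 3 tested probes the changes ran from -0.31 to 0.01, 0.16 to 0.72, 0.28 to 0.76, -0.96 to -0.45 and -0.29 to -0.23 in the same order. Col1a2, which forms the same triple helix, was called in SuHx versus hypoxia by 1 of 2 probes at 0.80 ± 0.19 (limma adjusted p = 0.00836), with 0.96 ± 0.34 on the other (limma adjusted p = 0.0646). In the other comparisons the called probe stood at -0.50, 0.30, -0.39 and -0.10.

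Col3a1 ran from -0.97 to 0.22 (median -0.12) in normal, -0.46 to 1.02 (median 0.24) in hypoxia, -0.54 to 1.23 (median 0.57) in SuHx and -0.95 to 0.16 (median -0.59) in carvedilol animals, overlapping throughout. Its changes in the order above were 0.39, 0.69, 0.30, -0.93 and -0.24, each with an SE of 0.31, and the lowest limma adjusted p was 0.134 in carvedilol versus SuHx. The difference Col1a1 minus Col3a1 within each animal asks whether both genes moved alike; it carries no amount of one over the other. It was -0.56 ± 0.37 (SD, n = 6) in normal, -1.09 ± 0.32 (SD, n = 6) in SuHx and -0.61 ± 0.48 (SD, n = 6) in carvedilol animals. The change from normal to SuHx was -0.53 (two-sided exact permutation p = 0.026, adjusted 0.0519 over the 2 comparisons), and carvedilol was 0.48 above SuHx (exact permutation p = 0.0736). Neither passed the threshold after adjustment, with 0.00216 the smallest p that 924 regroupings allow.

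Collagen VI forms beaded filaments next to basement membranes. Col6a1 ran from -1.08 to -0.34 (median -0.53) in normal, -1.61 to -1.0 (median -1.19) in hypoxia, -1.30 to -0.26 (median -0.61) in SuHx and -1.19 to -0.66 (median -0.86) in carvedilol animals. It was lowest in hypoxia by median but overlapped with every group: it fell by 0.66 ± 0.19 in hypoxia versus normal (limma adjusted p = 0.0308) and was 0.60 ± 0.19 higher in SuHx than in hypoxia (limma adjusted p = 0.0425), which failed in 5 and 9 of 12 omissions. These Col6a1 calls were also lost in 6 and 8 of 13 other settings, quantile normalisation and scaled arrays among them. The median of all probes moved by -0.37 and 0.26 in these comparisons. Col6a2 was 1.47 ± 0.45 higher in SuHx than in hypoxia (limma adjusted p = 0.0358), lost in 8 of 12 omissions, while a noisy EST probe (SD 2.13) stood at 0.96 ± 1.34. In the other comparisons Col6a1 stood at -0.05, -0.24 and -0.29, and Col6a2 at -0.96, 0.50, -0.54 and -0.04.

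The elastic fibre and cross-linking genes had the highest share of calls between SuHx and hypoxia among the 7 roles. Of their 10 probes 6 were called, from 4 of 5 genes and all higher, beside 12.2% of all probes called and 9.97% higher. The role is singled out after its counts were seen. Only the Fbn1 calls among these held in every omission of 1 animal. Fbn1 encodes fibrillin-1, the microfibril scaffold that elastin is laid on and that stores latent TGF-beta. It ran from 0.21 to 1.59 (median 0.81) in normal, -1.52 to 0.80 (median -0.12) in hypoxia, 0.57 to 2.30 (median 1.5) in SuHx and 0.86 to 2.70 (median 1.39) in carvedilol animals. Carvedilol and SuHx overlapped almost wholly, and hypoxia overlapped with SuHx at its upper edge. Fbn1 was 1.72 ± 0.41 higher in SuHx than in hypoxia, 3.29-fold (limma adjusted p = 0.0087), and 1.42 ± 0.35 on its second tested probe (limma adjusted p = 0.0101), both held in all 12 omissions. The first probe stood at -1.01, 0.71, 0.13 and 0.84 in hypoxia versus normal, SuHx versus normal, carvedilol versus SuHx and carvedilol versus normal, none called.

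Fbln1 encodes fibulin-1, a calcium-binding protein of microfibrils and basement membranes. Its probe A_44_P690171 ran from 1.10 to 2.40 (median 1.24) in normal, 0.05 to 1.39 (median 0.39) in hypoxia, 0.45 to 2.78 (median 1.91) in SuHx and 1.82 to 3.01 (median 2.80) in carvedilol animals. The groups overlapped except that hypoxia lay wholly below carvedilol. Fbln1 was 1.27 ± 0.35 higher in SuHx than in hypoxia (limma adjusted p = 0.0211) and 1.14 ± 0.35 higher in carvedilol than in normal (limma adjusted p = 0.0404, lost in 9 of 12 omissions). In the others it stood at -0.88, 0.39 and 0.76. A second probe, A_42_P801831, was called in SuHx versus hypoxia too, at 1.38 ± 0.45 (limma adjusted p = 0.0479), but not in 7 of 12 omissions or in 8 of 13 other settings. Hypoxia animal 4 was at -4.29 on it, and without this animal the change of Fbln1 A_42_P801831 was 0.80 (limma adjusted p = 0.0346).

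Lysyl oxidases cross-link collagen and elastin. Loxl2 was 1.11 ± 0.30 higher in SuHx than in hypoxia (limma adjusted p = 0.0195), with -1.56 to -0.65 in hypoxia and -0.92 to 0.63 in SuHx, and stood at -0.27, 0.84, 0.01 and 0.84 in the other comparisons. The Loxl2 call was lost in 2 of 12 omissions and in 2 of 13 other settings. In SuHx versus hypoxia Loxl1 was called by 1 of 2 probes at 1.39 ± 0.39 (limma adjusted p = 0.0208), with 1.01 ± 0.36 on its representative (limma adjusted p = 0.0701). This Loxl1 call was lost in 4 of 12 omissions and in 4 of 13 other settings. The representative of Loxl1 stood at -0.03, 0.98, -0.45 and 0.52 in the others. Lox itself was called by none of 3 probes: its representative ran from -4.51 to -3.62 in normal, -4.03 to -3.39 in hypoxia, -4.30 to -2.24 in SuHx and -3.93 to -3.31 in carvedilol animals, with changes of 0.34, 0.83, 0.49, -0.43 and 0.40. Over the 3 probes, changes ran from -1.52 to 0.34 in hypoxia versus normal, 0.46 to 0.83 in SuHx versus normal and 0.49 to 1.99 in SuHx versus hypoxia. In carvedilol animals they ran from -0.43 to 1.38 against SuHx and from 0.40 to 1.84 against normal. With the probes averaged, Lox stood at -0.94 in hypoxia versus normal and 0.29 in carvedilol versus SuHx, neither called.

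**Figure D4:**
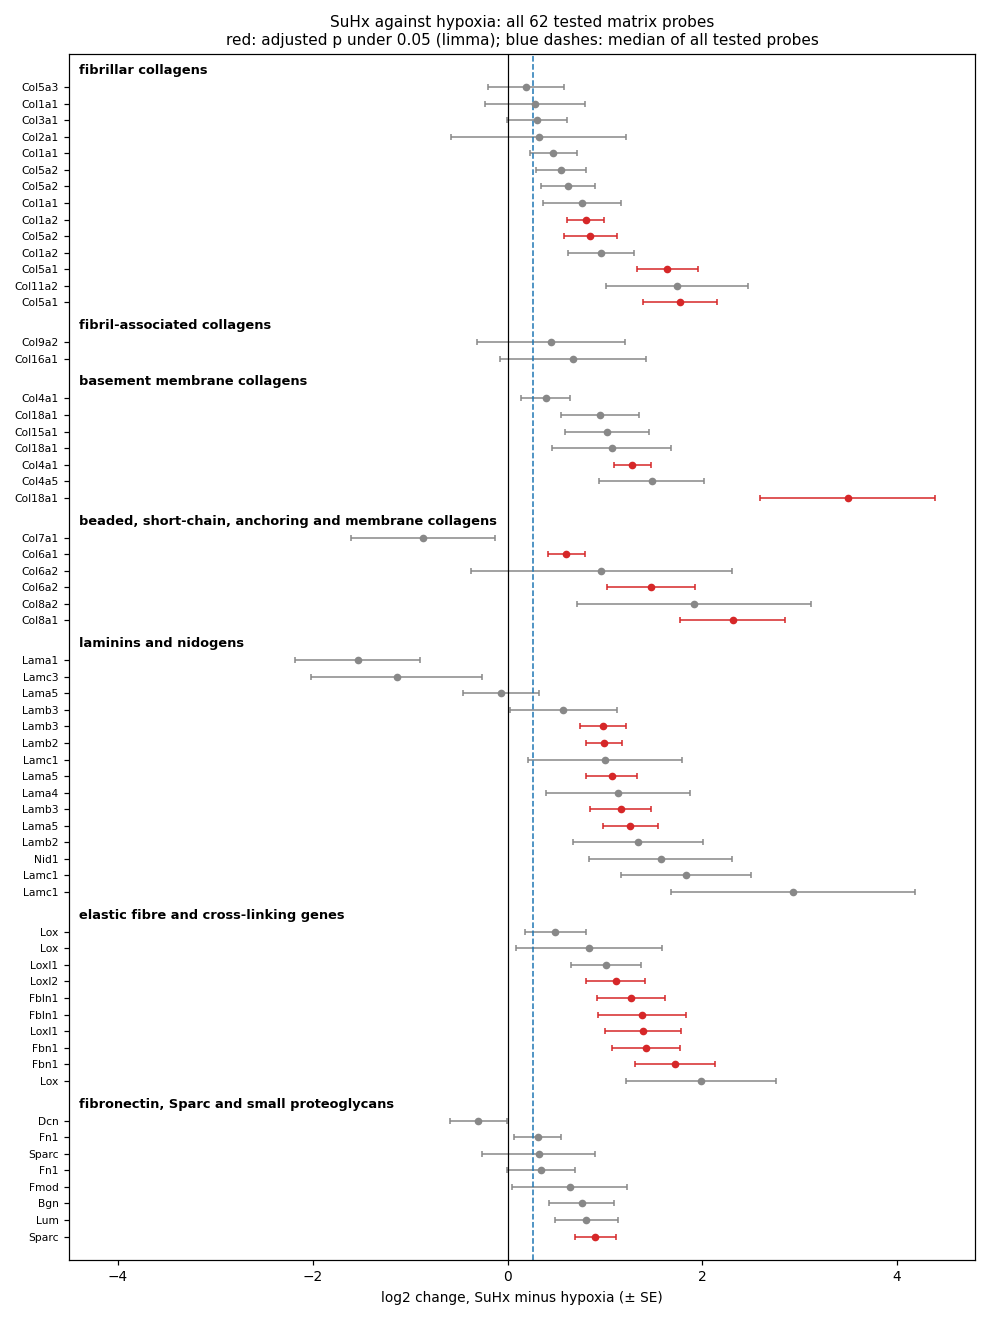
Log2 change from hypoxia to SuHx (x axis, ± SE) of all 62 tested probes, labelled by gene symbol and grouped by role, red where the limma adjusted p is under 0.05. The blue dashes mark the median of all tested probes at 0.26, and 56 of 62 member probes lie above it.

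Of the 8 probes of fibronectin, Sparc and the small leucine-rich proteoglycans, 1 was called in SuHx versus hypoxia, a share near the 12.2% of all probes. Sparc, a collagen-binding protein that aids fibril assembly, was read by 2 probes. On the RefSeq probe A_44_P451357 it ran from -0.15 to 0.28 (median 0.06) in normal, -0.44 to 0.60 (median -0.22) in hypoxia, 0.27 to 1.63 (median 0.80) in SuHx and 0.51 to 1.06 (median 0.91) in carvedilol animals. Carvedilol lay wholly above normal, and SuHx met normal only at the edge. Sparc was 0.90 ± 0.21 higher in SuHx than in hypoxia (limma adjusted p = 0.00711) and 0.80 ± 0.21 higher in carvedilol than in normal (limma adjusted p = 0.0178), both held in all 12 omissions. The EST probe A_44_P393007, its representative by the rule of highest mean ratio, was called nowhere, at 0.32 ± 0.58 and -1.28 ± 0.58, and the average of both probes gave -0.24 in carvedilol versus normal.

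Fn1, the fibronectin that cells first lay down, stood at 0.52, 0.86, 0.34, -0.25 and 0.60 in hypoxia versus normal, SuHx versus normal, SuHx versus hypoxia, carvedilol versus SuHx and carvedilol versus normal, and a second probe printed in 10 spots stood at -0.21, 0.10, 0.31, -0.52 and -0.42. Neither was called. Lumican (Lum), which spaces collagen fibrils, was 1.27 to 2.19 (median 1.75) in SuHx, against -0.09 to 1.27 (median 0.65) in normal and -0.04 to 1.37 (median 0.61) in carvedilol animals. SuHx met normal at the edge and overlapped slightly with carvedilol. The change of Lum was 1.11 ± 0.32 in SuHx versus normal (limma adjusted p = 0.0928) and -1.06 ± 0.32 in carvedilol versus SuHx (limma adjusted p = 0.109), neither called. Biglycan (Bgn) stood at -0.08, 0.68, 0.76, 0.24 and 0.92, decorin (Dcn) at 0.62, 0.33, -0.30, 0.38 and 0.71, and fibromodulin (Fmod) at -0.50, 0.14, 0.64, 0.11 and 0.25 in the same 5 comparisons, none called.

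The SuHx animals differed among themselves in their matrix genes as a set. Over the 55 member probes with a value in all 6, SuHx animal 3 was lowest on 35, while it was lowest on 19.0% of all probes with 6 values. Animals 4 and 6 were highest on 27 and 19 of the 55, against 15.5% and 18.2% of all probes. The median deviation from the group mean over the tested members was -0.65 in animal 3 and -0.39 in animal 2, and 0.59 and 0.63 in animals 4 and 6, while over all tested probes it was between -0.05 and 0.06. Animals 3 and 6 rest on 1 array each and animal 4 on 2. In no normal animal did this median pass -0.25 or 0.20, in carvedilol it was between -0.19 and 0.32, and in hypoxia between -0.33 and 0.41. The median SD between animals of a group over the members was 0.42 for the normal group, 0.59 for the carvedilol group, 0.73 for hypoxia and 0.74 for SuHx. Arrays of the same animal differed with a median SD of 0.70, as much as animals of a group.

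**Figure D5:**
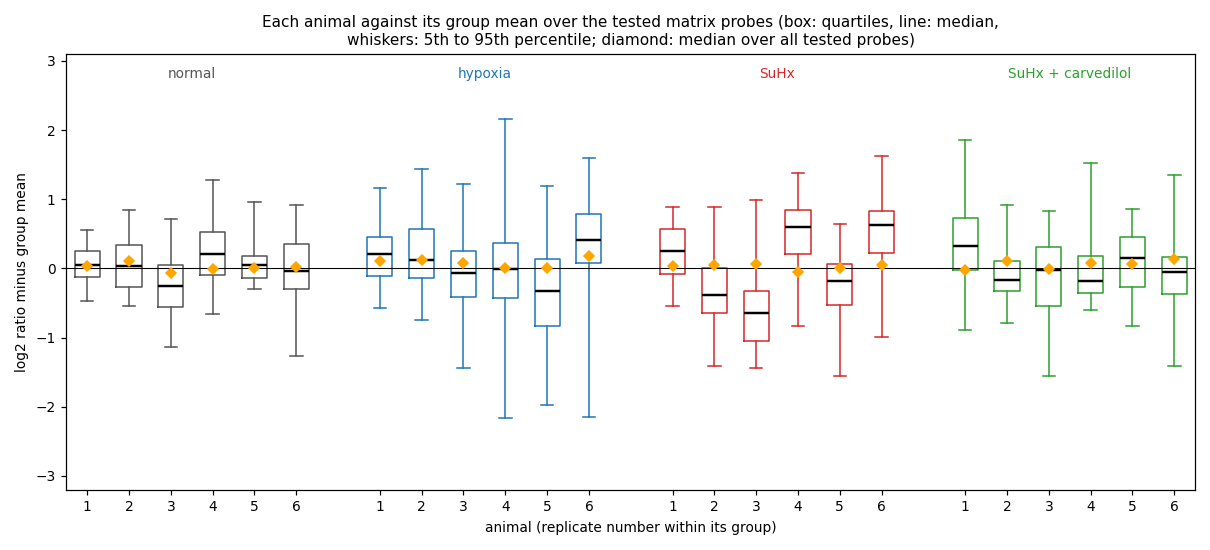
Log2 ratio minus the group mean (y axis) over the tested matrix probes for each of the 24 animals, by replicate number within group: boxes show quartiles, the black line the median and whiskers the 5th to 95th percentiles. Orange diamonds, the median over all tested probes, stay near 0, while the SuHx boxes lie from -0.65 (animal 3) to 0.63 (animal 6).

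Probe design moved with the spread. The 51 tested probes on RefSeq accessions had a median within-group SD of 0.61, and the 11 on EST or other accessions had 1.27 (lowest 0.91). Of the former 21 and of the latter 1, the Col18a1 EST probe, were called in any comparison. A value on all 40 arrays was present for 23 and 1 of them. Whether the design of the probe accounts for the disagreement of probes was not tested.

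Genes that act on the matrix were read from lists of 1 probe per gene. Of 22 tested collagen-modifying and processing genes, 3 were higher and 0 lower in SuHx versus hypoxia: Adamts2, which removes the collagen N-propeptide (1.54 ± 0.31, limma adjusted p = 0.00224), P4hb, a subunit of prolyl 4-hydroxylase (0.78 ± 0.24), and the lysyl hydroxylase Plod3 (0.77 ± 0.21). Of all probes 9.97% were higher there, and the median of this list was 0.43 beside 0.26 for all probes. Plod2, the telopeptide lysyl hydroxylase that makes cross-links hard to cleave, was higher than normal in hypoxia (1.27 ± 0.30, limma adjusted p = 0.011), in SuHx (1.33 ± 0.29, limma adjusted p = 0.0309) and in carvedilol animals (1.35 ± 0.32, limma adjusted p = 0.0118). Pcolce, which speeds removal of the C-propeptide, fell in hypoxia by 1.00 ± 0.25 (limma adjusted p = 0.0135) and by 0.95 ± 0.25 in carvedilol versus normal (limma adjusted p = 0.0184).

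Of 12 other elastic fibre genes, 3 were higher in SuHx than in hypoxia, Mfap4 (2.89 ± 0.42, limma adjusted p = 0.000178), Emilin1 (1.24 ± 0.22) and Ltbp4 (1.05 ± 0.26), and Ltbp1, a latent TGF-beta binding protein, fell by 0.94 ± 0.25, beside 12.2% of all probes called. Of 9 other basement membrane and small proteoglycan genes, Prelp alone was called there (1.21 ± 0.36). Of 18 matrix receptors, 4 fell in hypoxia versus normal, where 10.9% of all probes were lower: Itgb1, the integrin beta 1 chain shared by collagen and laminin receptors (-1.35 ± 0.26, limma adjusted p = 0.00199), the muscle laminin receptor chain Itga7 (-0.72 ± 0.23), Itgb5 (-0.62 ± 0.19) and Sdc1 (-1.62 ± 0.29). Itgb1 was the receptor called in SuHx versus hypoxia, at 1.58 ± 0.26 (limma adjusted p = 0.000558). In carvedilol versus SuHx, 0 of these 61 genes were called by limma, and in SuHx versus normal 1, Plod2, beside 1.13% of all probes in each. At an unadjusted p under 0.05 there were 14 in carvedilol versus SuHx, beside 2190 of all 13454 probes. In hypoxia versus normal 8 of the 61 were called, beside 11.9% of all probes, among them the elastic fibre genes Fbn2 and Mfap4, both lower. In carvedilol versus normal 12 of the 61 were called, beside 10.5% of all probes (2.68% higher and 7.77% lower). Besides Plod2 and Pcolce, given above, Ltbp4, Itgb1 and Tgm2 were higher, and Efemp1, Ogn, Smoc2, Fkbp14, Itgb4, Sdc1 and Sgcb were lower.

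Some markers of several cell types were called alongside. Of all probes 11.9% were called in hypoxia versus normal, 12.2% in SuHx versus hypoxia and 10.5% in carvedilol versus normal. The share was 1.13% both in carvedilol versus SuHx and in SuHx versus normal. From normal to hypoxia the median change was -0.01 over fibroblast, 0.01 over cardiomyocyte and -0.51 over mesothelial markers, beside -0.37 for all probes. In hypoxia versus normal, where Lamb2, Col5a1 and Col6a1 fell, the fibroblast marker Vim (-1.14 ± 0.25), the cardiomyocyte marker Ryr2 (-4.33 ± 0.81) and the mesothelial marker Krt18 (-0.82 ± 0.19) were lower, 1 of 8, 1 of 10 and 1 of 4 tested markers. The mean log2 ratio of the cardiomyocyte markers was 3.74 to 4.93 in hypoxia and 4.12 to 5.16 in normal animals. Ryr2 was 4.24 ± 0.81 higher in SuHx than in hypoxia, the 1 of 10 cardiomyocyte markers called there. Between SuHx and hypoxia, 3 of 4 tested markers of activated fibroblasts were higher, Postn by 3.92, Fap by 2.81 and Ccn2 by 2.30. The other, Tnc, was lower (-2.07). The mean log2 ratio of these 4 markers was -2.62 to -0.91 in hypoxia and -2.71 to 0.23 in SuHx animals. Of 8 fibroblast markers 1, Vim, was higher, with means of -0.36 to 0.77 in hypoxia and -0.15 to 0.47 in SuHx; Ddr2 and Mfap5 of these 8 also stand in the lists above. Of 8 macrophage markers 3 were higher (C1qc, Csf1r and Lyz2), with macrophage means of 0.85 to 1.5 in hypoxia and 1.89 to 2.95 in SuHx. Of 8 smooth muscle and pericyte markers Mcam was higher (means of 0.73 to 1.84 in hypoxia and 1.64 to 2.58 in SuHx), and of 8 endothelial markers Egfl7 was lower (2.79 to 4.30 and 3.23 to 4.11). Between carvedilol and SuHx, 4 of 10 cardiomyocyte markers were higher, among them Tnnt2 by 2.15 ± 0.37 (limma adjusted p = 0.00912), with means of 5.45 to 6.81 in carvedilol against 4.60 to 5.61 in SuHx. The endothelial marker Egfl7 was higher too, by 0.97 ± 0.23 (limma adjusted p = 0.0438), 1 of 8, with endothelial means of 3.70 to 4.87 in carvedilol and 3.23 to 4.11 in SuHx. In carvedilol versus normal 8 of 10 cardiomyocyte markers were higher, as were 2 of 8 macrophage markers, 2 of 8 endothelial markers, the pericyte marker Rgs5 (0.91 ± 0.28, 1 of 8) and the activated fibroblast marker Ccn2 (3.52 ± 0.30, 1 of 4), and 3 of 4 mesothelial markers were lower. In SuHx versus normal Ccn2 (3.21 ± 0.30), Postn (3.79 ± 0.65) and Rgs5 (1.33 ± 0.28) were higher and Krt18 (-0.98 ± 0.19) was lower. The part of these cell types in the changes of Lama5, Lamb2 and the other members was not tested.

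The 12 genes with no tested probe were Col11a1, Col14a1, Col17a1, Col23a1, Col26a1, Col27a1, Col4a3, Col4a4, Col6a4, Col9a1, Eln and Nid2. Elastin (Eln) had values in 6 normal, 6 hypoxia, 3 SuHx and 4 carvedilol animals, Col27a1 in 6, 2, 6 and 4, and Col14a1, a fibril-associated collagen, in 5, 3, 3 and 2 on its better probe. Of the 29 untested probes, 19 had values in fewer than 4 SuHx animals and 19 in fewer than 4 carvedilol animals. The reason for an empty value is not given in the sources used here, so no level is read from it.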

How the data were processed

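Right ventricle RNA (Cy5) and the pooled cell line reference (Cy3) were hybridised to Agilent Whole Rat Genome arrays; per the series' design text and the labels, the authors used the marray package for lowess normalisation within arrays. The deposited values are log ratios. They were taken as log2 because they span -13.6 to 14.0, although 1 deposited set of the same values is named as log10. Every fold change given here rests on this choice. The log base, any background correction and the reason for the 34.9% empty cells have no statement in the sample labels. Spots were paired with probe names by identical values on the 40 arrays (43301 of 43379 matched 1 name, 4 matched no single name and were kept under labels of their own, and 74 were empty), and genes were taken from the platform annotation.

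Spots of a probe and then arrays of an animal were averaged, so 8, 12, 12 and 8 arrays gave 6 normal, hypoxia, SuHx and carvedilol animals. R 4.3.3 with limma 3.58.1 (lmFit, eBayes) fitted 1 mean per group to probes with values in at least 4 of 6 animals of every group (13454 with 1 named gene), with calls at 0.05 after Benjamini-Hochberg adjustment. Precision is limited by the number of arrays, with a median standard error of 0.46 per change. Same-numbered animals of different groups did not deviate together (median correlation 0.01 over 36 pairs, against 0.00 over 180 others), so no pairing was used. The model was tested on simulated data.

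Named genes are a panel of matrix genes given in every comparison, plus every called member; a gene is given by the probe with most animals, then most arrays, then highest mean ratio. A named gene with several tested probes has the others mentioned beside it, though not with a value in every comparison. The members, the panel and the gene lists were chosen with earlier results of these data known. A probe's level was set against no other probe's.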

Additional observations from a re-analysis of the deposited data

Results flagged for a closer look

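Among the 38 named probes examined in 4 groups each (152 groups), 6 held an animal far from the rest of its group by Dixon's 95% limit, and chance alone marks about 1 in 20 groups. Col15a1 was 0.50 in hypoxia animal 4, where the others ran from 2.84 to 4.04. In the same animal the Fbln1 probe A_42_P801831 was -4.29, against -1.16 to -0.51. Col8a1 was -4.68 in hypoxia animal 6, against -2.06 to -1.42 in the 4 others with a value, and 0.13 in carvedilol animal 5, against 0.61 to 0.83. The Lamb3 probe A_44_P1034209 was -3.58 in hypoxia animal 3, against -2.12 to -1.68, and the probe A_44_P1034201 was -0.93 in carvedilol animal 5, against -1.30 to -1.17.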

How the results depend on the processing

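Between SuHx and hypoxia every called member was higher as reported and in all alternatives but a fit of these groups alone, given below, and the first technical array (13 higher, 1 lower): 34 probes were called with the arrays of an animal as a random block (all higher), 12 of 38 genes when probes of a gene were averaged, 11 of 24 probes with a value on every array, and 9 in a fit of these groups alone (8 higher, 1 lower). The random block used a consensus correlation of 0.05 between arrays of 1 animal, so it weighed them almost as separate animals. Over all probes it gave 2252 calls, beside 1643 as reported, and a fit of these groups alone gave 886. With probes averaged 1099 of all 9775 genes were called. Of all 3683 probes with a value on every array 947 were called, and 1205 of 10633 on the first technical array. Leaving out 1 animal gave 13 to 23, with 13 without SuHx animal 6. For hypoxia versus normal the random block gave 6, animal weights 7 and arrays scaled to equal spread 5 (2 higher, 3 lower), while label numbers over 100 as a covariate gave 1, as did, chosen after seeing the data, leaving out the hypoxia animals so numbered; omissions gave 1 to 4. For SuHx versus normal the calls were 9 with the random block (410 over all probes), 19 with animal weights (17 higher, 2 lower; over all probes 1442 calls, 510 higher and 932 lower, beside 152), 7 with scaled arrays, 5 after quantile normalisation, 4 of 24 with values on every array, and 2 with the covariate or in a fit of these groups alone; omissions gave 0 to 3. For carvedilol versus SuHx there were 9 calls with the random block (3 higher, 6 lower), 2 with values in at least 2 animals per group or on every array, 1 on the first technical array or with probes averaged, and 0 with the covariate, under which all 6 carvedilol and 2 hypoxia animals share a term, or in a fit of these groups alone; omissions gave 1 to 4, with 1 without SuHx animal 1, 3 or 5 and 2 without SuHx animal 2 or carvedilol animal 2, 5 or 6. For carvedilol versus normal there were 14 calls after quantile normalisation, 13 with scaled arrays, 4 with probes averaged, 3 on the first technical array and 2 with the covariate; omissions gave 5 to 8. Calls over all 13454 probes moved in these settings too. In hypoxia versus normal they were 1648 with the random block, 2287 with animal weights and 2316 with scaled arrays, beside 1598. For SuHx versus normal quantile normalisation gave 349, scaled arrays 457, the covariate 168 and a fit of these groups alone 608, beside 152. Among the 3683 probes with a value on every array, 299 were called there. Carvedilol versus SuHx had 494 with the random block, 163 with the covariate and 59 in a fit of these groups alone, beside 152. It had 158 of 3683 probes with a value on every array and 84 of 19119 with at least 2 animals per group. On the first technical array it had 17 of 10633, and 83 of 9775 genes with probes averaged. Carvedilol versus normal had 1739 after quantile normalisation, 1920 with scaled arrays and 344 with the covariate, beside 1407. It had 584 of 10633 probes on the first technical array and 1028 of 9775 genes with probes averaged. The cause of these moves was not tested.

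Col1a1 minus Col3a1 passed the threshold after quantile normalisation (-0.53 in SuHx versus normal, 0.57 in carvedilol versus SuHx) and with scaled arrays (-0.53 and 0.58), but with the mean of all tested probes of each gene it was -0.30 and 0.29 (exact permutation p = 0.307 and 0.34 after adjustment); omissions gave -0.60 to -0.42 and 0.35 to 0.64. Averaging the probes of a gene turned Lamb2 in carvedilol versus SuHx to -0.33 and Sparc in carvedilol versus normal to -0.24. With the replicate block the member calls were 4, 0, 21, 3 and 7 in hypoxia versus normal, SuHx versus normal, SuHx versus hypoxia, carvedilol versus SuHx and carvedilol versus normal. Of 3742 values of named probes under an alternative, 3324 kept their direction and side of the threshold, 133 were called in neither fit but took the opposite sign, 189 lost and 94 gained a call, and 2 with a call turned sign. Over all probes, calls in hypoxia versus normal were 380 higher and 1559 lower after quantile normalisation, beside 138 and 1460 as reported, and with scaled arrays 147 and 310 beside 68 and 84 in SuHx versus normal, and 67 and 124 beside 70 and 82 in carvedilol versus SuHx. Spread between arrays of 1 animal, as large as that between animals, limits what a single array can show.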
